A study of Mus musculus with 18 samples.

Results

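The CD28 family of co-receptors was followed through 5 genes, Cd28, Ctla4, Icos, Btla and Pdcd1, which were taken by name as 5 of the 15137 gene symbols with a deposited value. RNA sequencing had been done on naive CD4+ T cells sorted from mouse spleen by surface markers, with CD25+ and CD44+ cells left out, all on the C57BL/6J background. The 6 groups, of 3 libraries each, were Creld1 cKO and control cells taken fresh, Creld1 cKO and control cells after 8 h of culture without stimulation, and Creld1 cKO and control cells stimulated during the same 8 h by anti-CD3 and anti-CD28 (1 µg/ml). Creld1 cKO mice are conditional knockouts made with CD4-Cre, a transgene active from the thymus onwards and therefore also in CD8 lineage cells. The labels describe neither the deleted exons nor the alleles of control mice. All 3 libraries of a group carry 1 mouse label, so they may share an animal, and every p-value below then reflects library-to-library spread that could be technical. The unit throughout is the deposited log2 expression value, and no sequencing depth is known for any library.

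T cells need a second signal beside the antigen receptor, and the CD28 family supplies much of it. CD28 is present on resting naive T cells and binds CD80 and CD86 on antigen-presenting cells, whereas CTLA-4 binds the same ligands with higher affinity and restrains activation. ICOS, induced on activation, binds ICOS ligand and supports follicular helper cells. PD-1, the product of Pdcd1, binds PD-L1 and PD-L2 and recruits the phosphatase SHP-2. BTLA is an inhibitory receptor of naive T and B cells whose ligand is HVEM, a member of the TNF receptor superfamily.

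As a check of the labels, Creld1 was measured at a low level. Its log2 value was 4.03 ± 0.27 in cKO and 5.03 ± 0.32 in control cells in unstimulated culture (SD, n = 3 each), 4.10 ± 0.36 in cKO and 4.58 ± 0.26 in control cells when fresh, and 4.38 ± 0.24 in cKO and 4.74 ± 0.34 in control cells in stimulated culture. The cKO and control libraries did not overlap in unstimulated culture and overlapped in the other conditions. The sorted type was checked by its markers. Cd4 and Tcf7 averaged 12.74 and 13.70 over the 18 libraries, while of the markers of other lineages 3 of 12 for B cells, 4 of 10 for CD8 T and NK cells and 4 of 12 for myeloid and dendritic cells reached the minimum for testing. In the B cell list these were Cd74 (4.39), Cd79a (4.29) and Fcer2a (3.98), with Pax5 and Blk at -0.06 and -0.75. In the CD8 T and NK cell list Klrd1 (7.82), Cd8b1 (6.41), Prf1 (6.32) and Eomes (5.15) reached it, with Cd8a at 1.59 and Ncr1 and Gzmb at -0.57 and -0.70. In the myeloid list Ctss (10.00), Cst3 (7.01), Cd68 (4.68) and Itgam (4.47) reached it, with Adgre1 and Csf1r at 0.08 and -0.28. Markers of other T cell states were not absent, with Foxp3 and Ikzf2, genes of regulatory T cells, at 5.88 and 6.79 and the follicular helper gene Bcl6 at 7.56. Libraries also differed in GC slope, that is in how steeply log2 values depended on transcript GC content (per SD of GC, across genes). It ran from -0.45 to -0.32 in cKO and from -0.19 to -0.01 in control libraries of unstimulated culture. In stimulated culture it ran from -0.29 to -0.11 in cKO and from -0.38 to -0.13 in control, and in fresh cells from -0.57 to -0.10 in cKO and from -0.42 to -0.17 in control.

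Cd28, Ctla4 and Icos lie next to one another on the plus strand of chromosome 1 in GRCm38, at 60716800 to 60773359, 60887000 to 60915832 and 60977927 to 61000320, with gaps of 113.6 kb and 62.1 kb between them. Pdcd1 is on the minus strand of the same chromosome at 94038305 to 94052553, and Btla is on the plus strand of chromosome 16 at 45224315 to 45257670. In the GENCODE annotation the longest transcripts have 4 exons for Cd28 and Ctla4, 5 for Icos and Pdcd1, and 6 for Btla. The processed pseudogene Rpl18-ps1 lies within Ctla4 and the uncharacterised gene Gm37039 within Icos, both on the same strand, so reads there could be split between genes. No annotated gene on the opposite strand overlaps a member. Transcript GC content was 41.2% for Cd28, 42.6% for Ctla4, 43.0% for Icos and 40.7% for Btla, against a median of 49.7% over tested genes. Pdcd1 stood apart at 54.6%.

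Upstream sequence is shown for the members with a RefSeq promoter entry, 3 of 5, because Ctla4 and Btla were lower after culture without stimulation and Pdcd1 was higher after stimulated culture than in fresh cells. Each is the 250 bases before the RefSeq start, 5′ to 3′ on the gene's strand in GRCm38.p6, with capitals for GGAAA, the core bound by NFAT factors, read on both strands. The windows are chr1:60908775-60909024, plus strand, chr16:45224087-45224336, plus strand, and chr1:94052554-94052803, minus strand.
Ctla4: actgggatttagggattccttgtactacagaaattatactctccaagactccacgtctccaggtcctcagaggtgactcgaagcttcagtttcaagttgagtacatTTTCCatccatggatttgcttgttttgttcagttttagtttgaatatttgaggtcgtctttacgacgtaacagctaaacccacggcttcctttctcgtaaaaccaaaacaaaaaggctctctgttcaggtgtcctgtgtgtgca
Btla: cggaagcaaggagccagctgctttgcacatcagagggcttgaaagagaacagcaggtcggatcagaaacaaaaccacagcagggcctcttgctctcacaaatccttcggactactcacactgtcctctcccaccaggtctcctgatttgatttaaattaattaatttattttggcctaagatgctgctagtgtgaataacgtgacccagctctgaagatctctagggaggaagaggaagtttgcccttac
Pdcd1: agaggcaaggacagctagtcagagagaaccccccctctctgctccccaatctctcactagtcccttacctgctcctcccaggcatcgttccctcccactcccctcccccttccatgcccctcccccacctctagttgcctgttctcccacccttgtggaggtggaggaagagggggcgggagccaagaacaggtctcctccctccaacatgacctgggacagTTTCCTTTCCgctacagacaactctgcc
The RefSeq start of Ctla4 lies inside the GENCODE gene. The Ctla4 window held 1 match, 144 bases before the start, the Pdcd1 window 2 adjoining matches at 28 and 23 bases before it, and the Btla window 0. The AP-1 motif TGANTCA, whose reverse complement has the same pattern, had 0 matches in each of the 3. Among 32851 promoter windows of this length, 55.6% held GGAAA and 6.75% held TGANTCA, so a GGAAA match is common.

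Per length of transcript, Cd28 was the most abundant member in all 6 groups. In fresh cells its linear value per kb was 1121 ± 120 in cKO and 1102 ± 169 in control (SD, n = 3 each), above 97.3% of the 10803 tested genes with a length in both. Btla followed at 556 ± 108 in cKO and 556 ± 79.0 in control, and Ctla4 at 252 ± 19.7 in cKO and 288 ± 17.5 in control. Icos lay close to Ctla4, at 226 ± 47.2 in cKO and 238 ± 34.6 in control. Pdcd1 was low, at 11.2 ± 1.81 in cKO and 11.6 ± 2.25 in control, above 14.4% and 14.7% of tested genes. As shares of the summed per-kb value of the 5 genes, fresh cKO cells had 51.9% Cd28, 25.5% Btla, 11.7% Ctla4, 10.4% Icos and 0.527% Pdcd1.

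**Figure D1:**
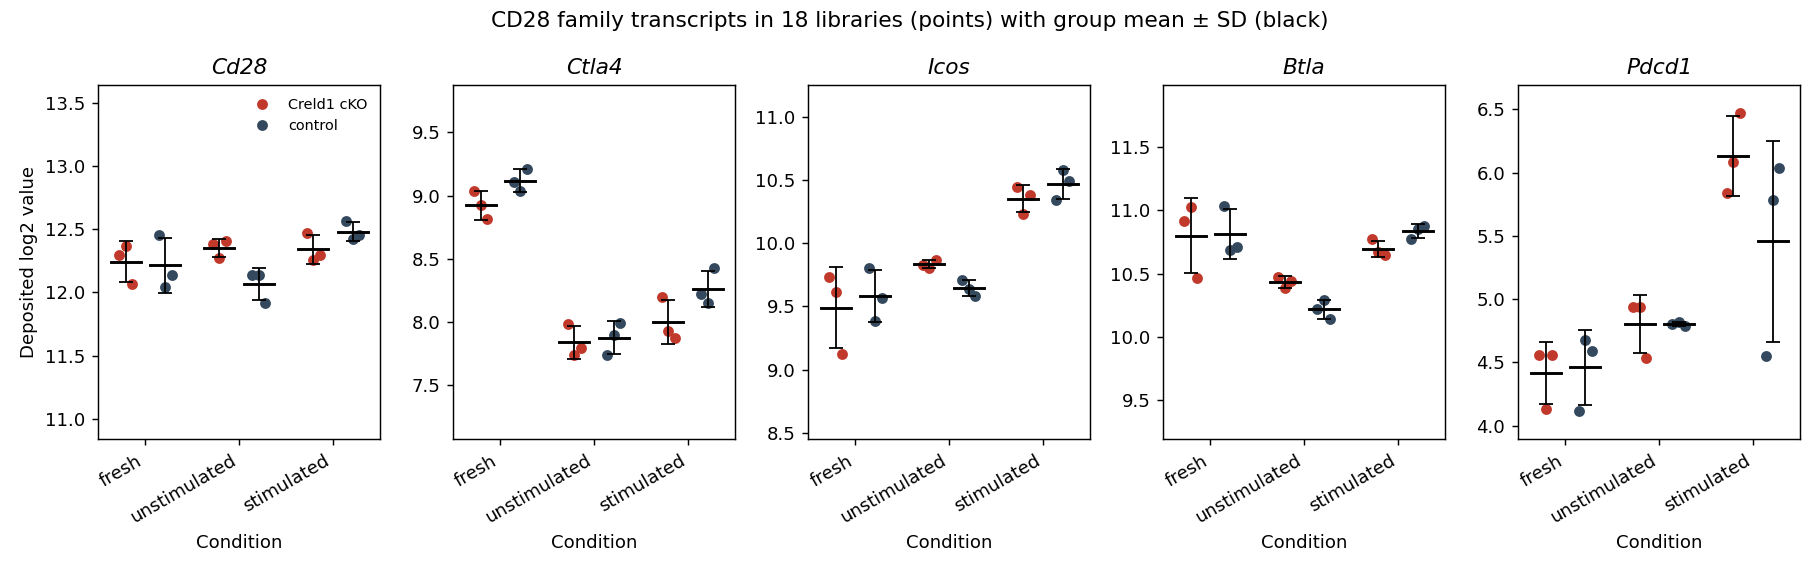
Deposited log2 value of the 5 family genes (y axes, each spanning the same number of log2 units) by condition (x axis), with Creld1 cKO in red left of control in blue-grey. Points are libraries and black bars the mean ± SD of 3. Ctla4 is highest in fresh cells, Icos and Pdcd1 are highest in stimulated culture, and 1 stimulated control library is low for Pdcd1.

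The members differed in how far their group means spread. The range of the 6 group means was 1.72 for Pdcd1, 1.28 for Ctla4, 0.98 for Icos, 0.61 for Btla and 0.42 for Cd28, on the log2 scale. For Ctla4 the order of groups was control fresh, cKO fresh, control stimulated, cKO stimulated, control unstimulated and cKO unstimulated. Control fresh lay apart from cKO fresh, though narrowly, and cKO fresh from control stimulated, while the remaining neighbours overlapped. For Icos the stimulated groups came first and the fresh groups last, with the stimulated pair overlapping each other and lying apart from unstimulated cKO cells, which in turn lay apart from unstimulated control cells. Every pair of neighbours in the order overlapped for Pdcd1. For Cd28 every pair did except control stimulated and cKO unstimulated, and for Btla the first 4 groups each overlapped the next, cKO stimulated lay apart from cKO unstimulated, and that group from control unstimulated.

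Culture without stimulation was compared with fresh cells first. Of the 5 members, 2 were called in cKO cells, where 22.1% of the 10877 tested genes were called, and 2 in control cells, where 29% were. They were Ctla4 and Btla in both, and both fell. A call here is a limma adjusted p under 0.05, with Benjamini-Hochberg adjustment over all tested genes.

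Ctla4 had log2 values of 7.99, 7.74 and 7.80 in unstimulated cKO libraries, against 9.04, 8.92 and 8.81 in fresh cKO libraries. In control cells it had 7.74, 7.90 and 7.99 in unstimulated libraries, against 9.11, 9.04 and 9.21 in fresh ones. Every unstimulated library lay below every fresh one. The difference was -1.08 ± 0.11 in cKO and -1.24 ± 0.11 in control cells (SE, n = 3 per group; limma adjusted p = 5.67e-06 and 1.18e-06), that is 2.12-fold and 2.37-fold lower. In bulk libraries fewer cells of a type and less RNA per cell cannot be told apart. Markers of follicular helper, memory and effector cells had lower sums in unstimulated than in fresh cells. Of the 16, 9 reached the minimum, and 1 rose and 2 fell in cKO (22.1% of all tested genes were called). In control cells 1 rose and 3 fell (29% of all tested genes). The 16 genes summed on the linear scale to 966 to 1004 in unstimulated and 1367 to 1442 in fresh cKO libraries, and to 1000 to 1041 in unstimulated and 1383 to 1451 in fresh control libraries. Of that list Id2 (8.83), Bcl6 (7.56), Cd44 (7.55), Il2rb (7.06) and Prdm1 (6.33) were the highest over the 18 libraries, and Ccr6 and Tbx21 were at -0.05 and -0.38. The 12 regulatory T cell markers, of which 11 reached the minimum, summed to 1244 to 1341 in unstimulated and 922 to 1625 in fresh cKO libraries, and to 1444 to 1768 in unstimulated and 1098 to 1457 in fresh control libraries. Of the 11, 2 rose and 2 fell in cKO (22.1% of all tested genes were called) and 3 rose and 2 fell in control cells (29%). Foxp3 had lower means in unstimulated than in fresh cells (5.83 against 6.05 in cKO and 5.83 against 6.02 in control). Ikzf4 had higher ones (8.27 against 6.87 and 8.39 against 6.99), so the sums mix markers that moved in opposite directions. The part of these cells in the Ctla4 difference was not tested.

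Btla had log2 values of 10.48, 10.39 and 10.44 in unstimulated cKO libraries, against 10.91, 11.03 and 10.47 in fresh cKO libraries. In control cells it had 10.22, 10.30 and 10.15 in unstimulated libraries, against 11.04, 10.69 and 10.71 in fresh ones. The control groups did not overlap, whereas 2 of 3 unstimulated cKO libraries lay below every fresh one. The difference was -0.37 ± 0.12 in cKO and -0.59 ± 0.12 in control cells (SE; limma adjusted p = 0.0375 and 0.00193). In cKO cells the call did not hold with only these groups fitted (adjusted p = 0.184), with TMM-type scaling (0.0522), after quantile normalization (-0.26, 0.126) or without any 1 of 5 of the 6 libraries (all except cKO fresh replicate 3, adjusted p from 0.0731 to 0.157). Btla is also a B cell gene, and the 12 B cell markers, of which 3 reached the minimum, summed to between 68.8 and 106 linear units in every library of the 6 groups. Of those 3, 1 was called higher in unstimulated than in fresh cKO cells, where 22.1% of all tested genes were called. In control cells 2 were called higher, where 29% of all tested genes were called. The median differences of the 3 were 0.33 and 0.37. Cd79a and Fcer2a had higher means in unstimulated cells of both genotypes. Cd74 had lower means, at 3.96 in unstimulated and 4.60 in fresh cKO cells and 4.41 in unstimulated and 4.78 in fresh control cells. The part of B cells in the Btla difference was not tested.

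The other members were not called. Cd28 had 12.38, 12.27 and 12.41 in unstimulated and 12.30, 12.37 and 12.07 in fresh cKO libraries, and 12.14, 12.14 and 11.92 in unstimulated and 12.46, 12.05 and 12.14 in fresh control libraries. These ranges overlapped in both genotypes. Icos had 9.83, 9.81 and 9.87 in unstimulated and 9.73, 9.62 and 9.13 in fresh cKO libraries, and 9.71, 9.64 and 9.58 in unstimulated and 9.80, 9.39 and 9.56 in fresh control libraries. The cKO groups did not overlap, and that difference of 0.34 ± 0.13 (SE) had a limma adjusted p of 0.0770. Pdcd1 had 4.94, 4.94 and 4.54 in unstimulated and 4.56, 4.13 and 4.56 in fresh cKO libraries, and 4.81, 4.82 and 4.79 in unstimulated and 4.12, 4.67 and 4.59 in fresh control libraries. The 95% intervals of the Pdcd1 differences, -0.24 to 1.01 in cKO and -0.28 to 0.97 in control cells, both spanned 0.

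Stimulation through CD3 and CD28 was compared with unstimulated culture of the same length. Of the 5 members 0 were called in cKO cells (0.285% of tested genes were) and 2 in control cells (0.349% of tested genes). The 2 were Icos and Btla, which rose. In cKO cells 3 members had an unadjusted limma p under 0.05, as did 2511 of the 10877 tested genes. Icos, Btla and Pdcd1 were also higher in all 3 stimulated cKO libraries than in any unstimulated one, without passing the test. How many of all tested genes separated so is not given here, so this is description only.

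Icos had 10.44, 10.23 and 10.38 in stimulated cKO libraries, against 9.83, 9.81 and 9.87 in unstimulated ones. It had 10.34, 10.58 and 10.49 in stimulated control libraries, against 9.71, 9.64 and 9.58 in unstimulated ones. The groups did not overlap in either genotype. The difference was 0.52 ± 0.13 in cKO (SE; limma adjusted p = 0.116) and 0.83 ± 0.13 in control cells (adjusted p = 0.0115, 1.77-fold). The control call was lost without any 1 of 5 of the 6 libraries (adjusted p from 0.0531 to 0.0868), all except control stimulated replicate 1, with differences of 0.77 to 0.86.

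Btla had 10.77, 10.67 and 10.65 in stimulated cKO libraries, against 10.48, 10.39 and 10.44 in unstimulated ones. It had 10.77, 10.85 and 10.88 in stimulated control libraries, against 10.22, 10.30 and 10.15 in unstimulated ones. All stimulated libraries again lay above the unstimulated ones. The difference was 0.26 ± 0.12 in cKO (SE; limma adjusted p = 0.212) and 0.61 ± 0.12 in control cells (adjusted p = 0.0378, 1.53-fold). Stimulated control cells differed from fresh ones by 0.02 ± 0.12 (SE), with a 95% interval of -0.23 to 0.28. The control call was lost without the variance trend (adjusted p = 0.0572) and without the same 5 libraries as for Icos (0.101 to 0.236).

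Pdcd1 had 5.84, 6.08 and 6.47 in stimulated cKO libraries, against 4.94, 4.94 and 4.54 in unstimulated ones, a difference of 1.33 ± 0.29 (SE; limma adjusted p = 0.0782). With consecutive library numbers as a block that difference was called (adjusted p = 0.0381), as were 153 of 10877 tested genes. It had 4.55, 5.78 and 6.04 in stimulated control libraries, against 4.81, 4.82 and 4.79 in unstimulated ones, a difference of 0.65 ± 0.29 (adjusted p = 0.421). In cKO cells every stimulated library lay above the unstimulated ones, whereas control stimulated replicate 1 lay below all unstimulated control libraries. Without that library the control difference was 1.11 and was called (adjusted p = 0.0277).

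Cd28 and Ctla4 were called in neither genotype. Cd28 had 12.47, 12.25 and 12.29 in stimulated cKO libraries and 12.56, 12.42 and 12.45 in stimulated control libraries, and differed from unstimulated culture by -0.01 ± 0.11 in cKO and 0.42 ± 0.11 in control cells (SE; limma adjusted p = 0.945 and 0.145). Ctla4 had 8.20, 7.93 and 7.87 in stimulated cKO libraries and 8.22, 8.15 and 8.43 in stimulated control libraries, with differences of 0.16 ± 0.11 and 0.39 ± 0.11 (adjusted p = 0.346 and 0.181). In control cells all stimulated libraries lay above the unstimulated ones for both genes, and in cKO cells the ranges overlapped for both. Regulatory T cell markers summed to 1627 to 2069 in stimulated and 1244 to 1341 in unstimulated cKO libraries, and to 1302 to 1908 in stimulated and 1444 to 1768 in unstimulated control libraries. Of the 11 tested, 0 were called in cKO (0.285% of all tested genes were) and 1 was called higher in control cells (0.349%). The follicular helper, memory and effector list summed to 1108 to 1298 in stimulated cKO and 1050 to 1196 in stimulated control libraries, above the unstimulated sums in both. Their part in the rise of Icos, which such cells express, was not tested.

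**Figure D2:**
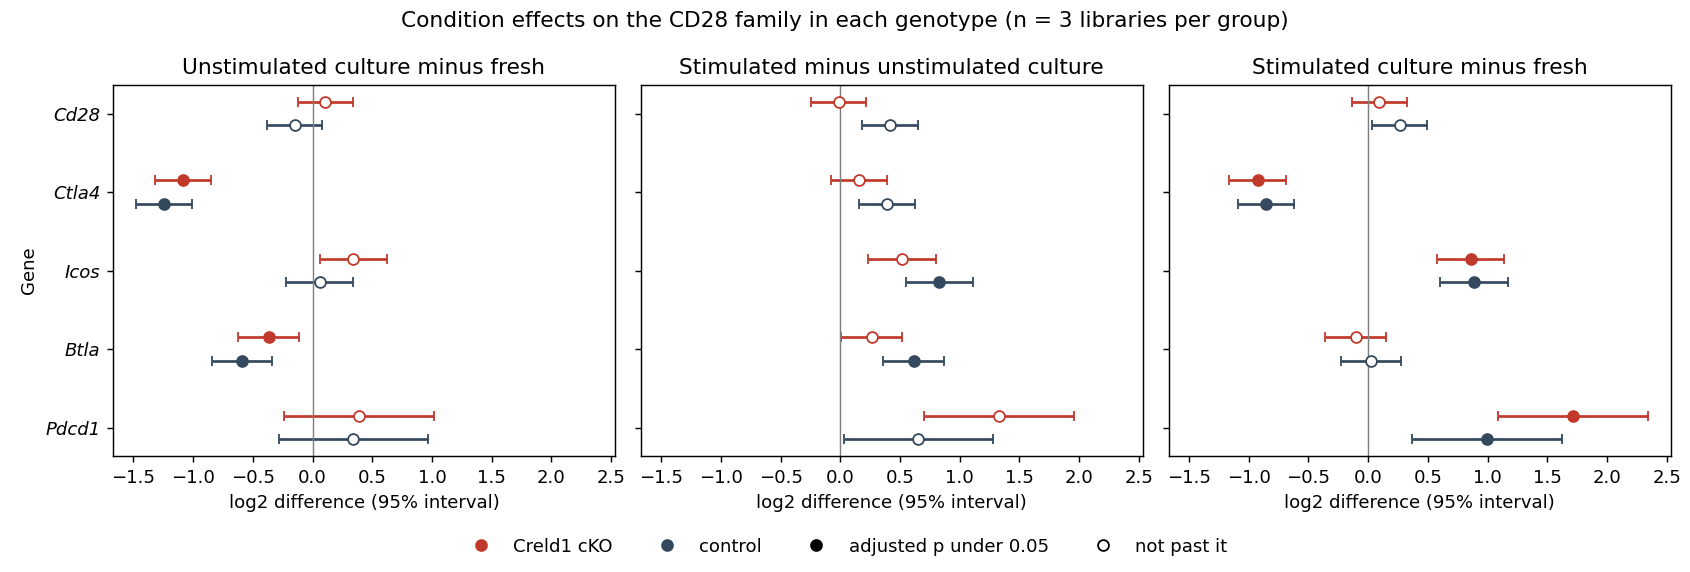
Log2 difference (x axis, with 95% interval) of each gene (y axis) between conditions, with Creld1 cKO in red above control in blue-grey and filled points for adjusted p under 0.05. Ctla4 is near -1 in both comparisons with fresh cells, while Icos and Pdcd1 are positive and called in both genotypes only for stimulated culture against fresh cells.

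Stimulated culture was also set against fresh cells, a comparison that shares its libraries with those above and is no separate evidence. Of the 5 members 3 were called in each genotype, Ctla4, Icos and Pdcd1, where 30.3% of tested genes were called in cKO and 18.8% in control cells. Ctla4 fell by 0.92 on the log2 scale in cKO and by 0.86 in control cells (SE 0.11 for both; limma adjusted p = 2.52e-05 and 5.96e-05), and every stimulated library lay below every fresh one. Icos rose by 0.86 ± 0.13 in cKO and 0.89 ± 0.13 in control cells (SE; adjusted p = 2.41e-04 and 2.13e-04). Pdcd1 rose by 1.72 ± 0.29 in cKO and 1.00 ± 0.29 in control cells (SE; adjusted p = 5.98e-04 and 0.0261), that is 3.28-fold and 1.99-fold, with 3 of 3 stimulated cKO but 2 of 3 stimulated control libraries above all fresh ones. In control cells the Pdcd1 call did not hold with only these groups fitted (adjusted p = 0.114) or without control fresh replicate 1 (0.102) or 3 (0.0517) or control stimulated replicate 2 (0.105) or 3 (0.136). Cd28 and Btla were not called.

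The balance between members therefore differed by condition. Per kb of transcript, Cd28 exceeded Ctla4 4.45-fold ± 0.34 in fresh, 10.2-fold ± 0.77 in unstimulated and 9.01-fold ± 0.47 in stimulated cKO cells, and 3.83-fold ± 0.62 in fresh, 8.18-fold ± 1.33 in unstimulated and 8.29-fold ± 0.93 in stimulated control cells (SD, n = 3 each). No cultured library came as low as any fresh one. Icos per kb was 0.890 ± 0.13 of Ctla4 in fresh, 2.38 ± 0.22 in unstimulated and 3.05 ± 0.30 in stimulated cKO cells. In control cells the same ratio was 0.828 ± 0.12 in fresh, 2.04 ± 0.28 in unstimulated and 2.77 ± 0.38 in stimulated cells. Fresh cells thus had less Icos than Ctla4 per kb in every library, and cultured cells more. The order in fresh cells depends on the division by transcript length, 3.241 kb for Icos and 1.933 kb for Ctla4. Without it Icos was above Ctla4 in fresh cells too, with mean log2 values of 9.49 against 8.92 in cKO and 9.58 against 9.12 in control cells. As a share of the 5 genes, Ctla4 took 11.7% in fresh, 5.81% in unstimulated and 5.83% in stimulated cKO cells, and 13.3% in fresh, 7.05% in unstimulated and 6.38% in stimulated control cells. These ratios follow from the levels already given and were not tested apart from them.

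**Figure D3:**
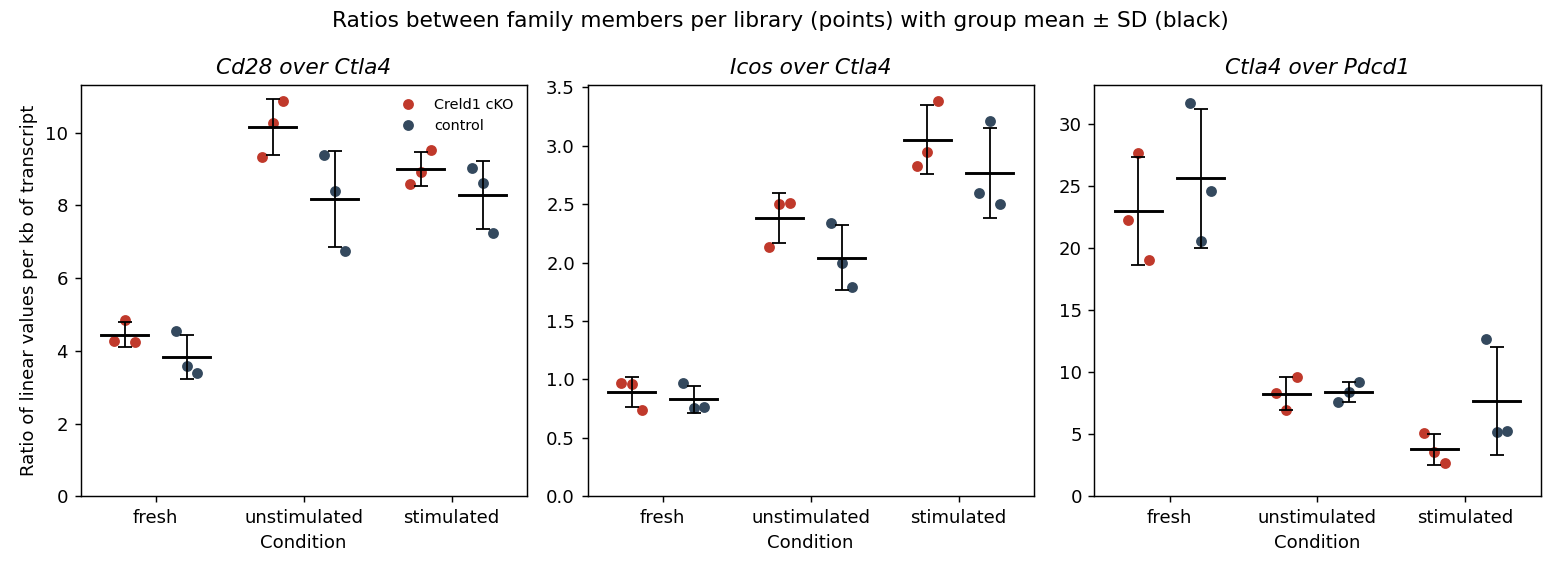
Ratio of linear values per kb of transcript between pairs of members (y axes, starting at 0) by condition (x axis), Creld1 cKO left of control, with libraries as points and black mean ± SD. Cd28 over Ctla4 lies at or below 4.84 in fresh and at or above 6.74 in cultured libraries.

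The effect of Creld1 deletion on the family was tested in each condition. Of the 5 members 0 were called in fresh cells (0.00919% of tested genes were called), 0 in unstimulated culture (0%), 0 in stimulated culture (0%) and 0 averaged over conditions (0.0184%), by limma. An unadjusted p under 0.05 was reached by 0, 1, 2 and 1 members in these 4 comparisons, and by 429, 3606, 160 and 901 of the 10877 tested genes. No tested gene was called lower in any of the 4, so Creld1 itself, lower in cKO cells in each condition, was not called. When only the groups compared were fitted, 3 members were called in unstimulated culture, as were 3762 of 10647 genes. With library weights 3 were called there, 3 in fresh cells and 1 on average, as were 6125, 5512 and 5173 of 10877 genes. With consecutive library numbers as a block 0 members were called in unstimulated culture, where 887 of 10877 genes were. Without cKO fresh replicate 3, 0 members were called in fresh cells, where 1193 of 10865 genes were, and 1617 genes were called on average.

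In fresh cells the differences ran from -0.20 for Ctla4 to 0.03 for Cd28. Ctla4 was narrowly lower in all 3 cKO libraries than in any control library, with a 95% interval of the difference of -0.43 to 0.04. In unstimulated culture Cd28 was 0.29 ± 0.11 higher in cKO cells, Icos 0.19 ± 0.13 and Btla 0.21 ± 0.12 (SE; limma adjusted p = 0.107, 0.293 and 0.208). For each of these 3 genes all cKO libraries lay above all control libraries. The share of all tested genes that separated fully is not given here for this or any other comparison, so separation is description only. The 3 are low in GC, and in this condition the GC slopes of cKO and control libraries did not overlap, so that genotype and GC slope cannot be told apart there. When GC slope entered the fit as a covariate the differences were 0.04, -0.05 and -0.04, so that of Cd28 shrank and those of Icos and Btla turned in sign, while Pdcd1, the GC-rich member, moved to 0.47 in place of -0.00034.

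In stimulated culture Ctla4 differed by -0.26 ± 0.11 and Pdcd1 by 0.67 ± 0.29 (SE; limma adjusted p = 0.974 for both). The cKO and control ranges overlapped for both genes. The Pdcd1 difference was 0.22 without control stimulated replicate 1. Btla was very narrowly lower in all 3 cKO libraries than in any control library (-0.14 ± 0.12), and Cd28 and Icos differed by -0.14 and -0.12. Averaged over the 3 conditions the Ctla4 difference was -0.17 ± 0.06 (SE; limma adjusted p = 0.463, with 9 libraries on each side), and its 95% interval was -0.30 to -0.03.

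Whether the response to stimulation differed by genotype was tested as an interaction, the difference in cKO minus that in control cells. By limma 0 of 5 members were called, as were 0.00919% of tested genes. The values were -0.43 ± 0.15 for Cd28, -0.23 ± 0.16 for Ctla4, -0.31 ± 0.19 for Icos, -0.35 ± 0.17 for Btla and 0.67 ± 0.42 for Pdcd1 (SE; adjusted p from 0.166 to 0.301). The 95% interval of Icos ran from -0.71 to 0.09. After adjustment for GC slope they were -0.11, -0.13, -0.00037, -0.02 and 0.06. With only the groups compared Cd28 and Btla were called (adjusted p = 0.0315 and 0.0304), as were 2381 of 10776 genes. With library weights Cd28, Ctla4, Icos and Btla were called (-0.42, -0.44, -0.36 and -0.37, adjusted p from 0.00122 to 0.00639), as were 5905 of 10877 genes. For culture against fresh cells 0 members and 0% of tested genes were called in the interaction, with values of 0.05 to 0.28. There 0 members were under an unadjusted limma p of 0.05, against 545 of the 10877 tested genes.

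**Figure D4:**
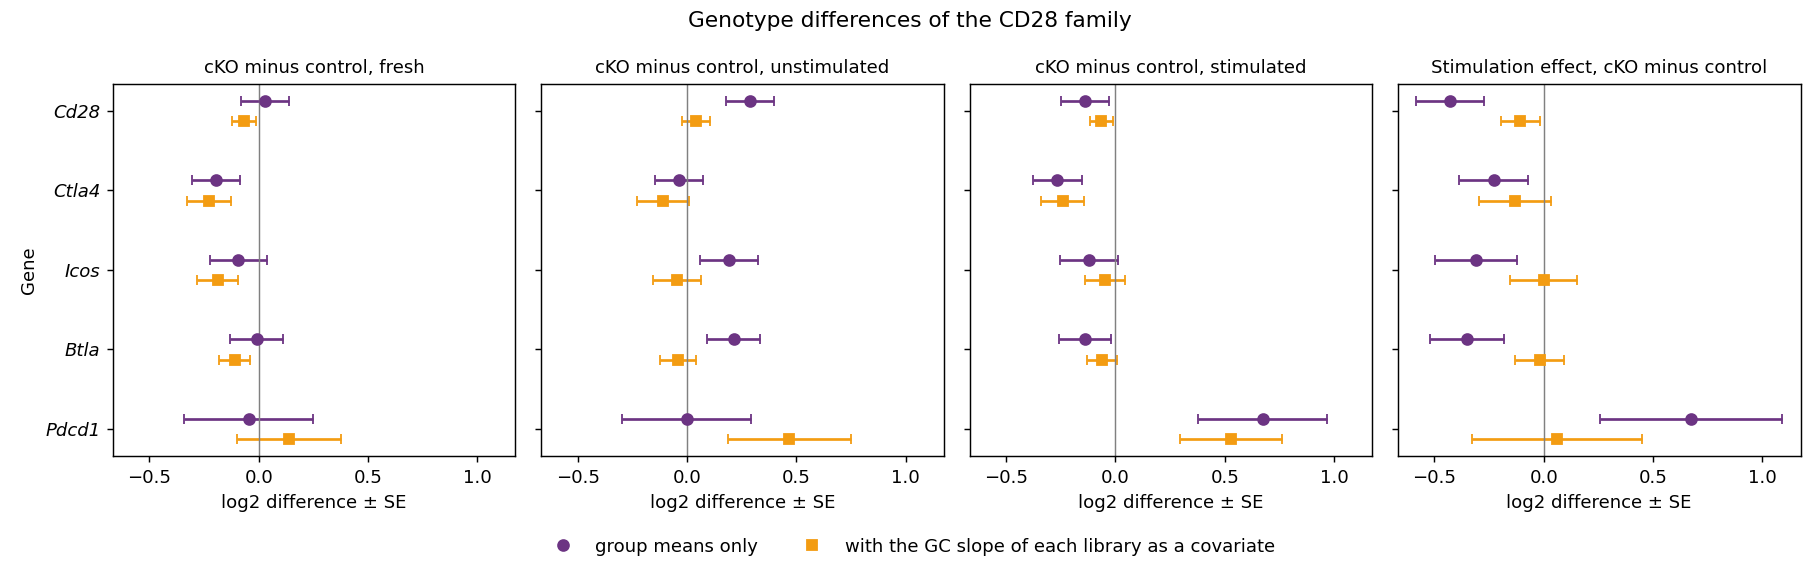
Difference between Creld1 cKO and control cells (x axis, log2 ± SE) for each gene (y axis) in the 3 conditions and, at the right, for the stimulation response. Purple circles are from the group means alone and orange squares from the fit with the GC slope of each library, where the 4 members low in GC move toward 0 in unstimulated culture except Ctla4, which is at -0.11.

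The ligands and partners of the family were read from 6 lists. Against them stand the shares of all tested genes called between unstimulated culture and fresh cells, 22.1% in cKO and 29% in control cells. Of 12 ligand and counter-receptor genes 9 had a value and 7 were tested. Cd80 was near the bottom of the scale, at 1.62 over the 18 libraries, and Icosl lay at 6.28. Cd86, the second ligand of CD28 and CTLA-4, had a mean of 4.66 in unstimulated and 5.31 in fresh cKO cells and of 4.17 in unstimulated and 5.05 in fresh control cells, and fell in both (-0.65 ± 0.19 and -0.87 ± 0.19, SE; limma adjusted p = 0.0193 and 0.00275). Cd274, which encodes PD-L1 and is expressed by T cells too, fell as well, by 0.82 in cKO and by 0.98 in control cells (SE 0.14 for both; adjusted p = 5.79e-04 and 1.21e-04). Tnfrsf14, which encodes HVEM, rose in cKO cells (0.65 ± 0.22, SE; adjusted p = 0.0444), and Cd160 fell in control cells (-0.56 ± 0.20, SE; adjusted p = 0.0416). In all, 1 ligand rose and 2 fell in cKO cells and 0 rose and 3 fell in control cells, with list medians of -0.26 and -0.07 against -0.02 and 0.04 over all tested genes. Pdcd1lg2, which encodes PD-L2, was the ligand that rose in stimulated cells of both genotypes against fresh ones (0.75 ± 0.19 in cKO and 0.67 ± 0.19 in control, SE; adjusted p = 0.00869 and 0.0216). Its means were 2.85 in cKO and 2.90 in control cells when fresh, 2.75 and 2.83 in unstimulated and 3.60 and 3.57 in stimulated culture. It reached the minimum for testing only through stimulated libraries, so its rise is description only. In this comparison 2 ligands rose and 1 fell in cKO cells (30.3% of all tested genes were called), and 1 rose and 2 fell in control cells (18.8%). Cd86 fell in both genotypes and Cd274 in control cells.

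Of 25 genes listed as signalling partners of CD28 and ICOS, all tested, 1 rose and 8 fell in cKO (22.1% of all tested genes were called) and 2 rose and 8 fell in control cells (29%) between unstimulated culture and fresh cells (medians -0.29 and -0.16). The list also holds Pdk1, a pyruvate dehydrogenase kinase gene and no receptor partner, which was not called in this comparison. Pik3r1, the regulatory subunit of phosphoinositide 3-kinase that docks on the CD28 and ICOS tails, fell by 0.57 in cKO and by 0.77 in control cells (SE 0.15; limma adjusted p = 0.0130 and 0.00154). The adaptor genes Grb2 and Lcp2 fell too, Lcp2 by 0.63 in cKO and by 0.50 in control cells (SE 0.07; adjusted p = 6.14e-06 and 5.31e-05), whereas the kinase gene Tec rose by 0.60 and 0.79 (SE 0.11; adjusted p = 9.68e-04 and 9.20e-05). With stimulation 1 of the 25 rose in each genotype against unstimulated culture, Lcp2 in cKO (0.45 ± 0.07, SE; adjusted p = 0.00388) and Malt1, a paracaspase gene of the NF-kB arm, in control cells (0.62 ± 0.12, SE; adjusted p = 0.0309). In that comparison 0.285% of all tested genes were called in cKO and 0.349% in control cells.

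Of 16 inhibitory signalling partners, all tested, 2 rose and 2 fell in cKO (a share near the 22.1% of all tested genes) and 2 rose and 5 fell in control cells (29% of all tested genes were called) between unstimulated culture and fresh cells. The phosphatase gene Inpp5d fell by 0.38 in cKO and by 0.32 in control cells (SE 0.09; limma adjusted p = 0.00609 and 0.0127). Ptpn6, which encodes SHP-1, fell in control cells (-0.53 ± 0.16, SE; adjusted p = 0.0201). Cblb, a ubiquitin ligase gene that limits CD28-dependent activation, rose in both (0.33 and 0.25, SE 0.06; adjusted p = 0.00119 and 0.00664). With stimulation 0 of the 16 were called in either genotype, where 0.285% of all tested genes were called in cKO and 0.349% in control cells.

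Of 26 trafficking and turnover genes 24 were tested, and 3 rose and 2 fell in cKO and 3 rose and 3 fell in control cells in unstimulated culture against fresh cells. These shares are close to the 22.1% and 29% of all tested genes called. Zc3h12a, the Regnase-1 gene whose product degrades Icos and Ctla4 messenger RNA among others, fell in cKO cells (-0.91 ± 0.27, SE; limma adjusted p = 0.0242). Its relative Zc3h12d rose by 0.69 in both genotypes (SE 0.09; adjusted p = 5.97e-05 in cKO and 5.31e-05 in control). Cmtm6, whose product stabilises PD-L1, rose by 0.26 in cKO and by 0.47 in control cells (SE 0.06; adjusted p = 0.00430 and 2.48e-05).

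Of 29 transcription factors reported at member genes 28 were tested. In unstimulated culture against fresh cells 3 rose and 8 fell in cKO (22.1% of all tested genes were called), and 4 rose and 6 fell in control cells (29%). Fos fell (-3.42 ± 0.18 in cKO and -3.09 ± 0.18 in control, SE; limma adjusted p = 7.59e-09 and 2.08e-08), and Jun fell as well (-3.57 ± 0.24 in cKO and -3.15 ± 0.24 in control, SE; adjusted p = 5.83e-08 and 2.34e-07). Foxo1, which encodes a factor of naive cell quiescence that binds at Ctla4 in regulatory T cells, fell by 0.62 in cKO and by 0.76 in control cells (SE 0.09; adjusted p = 1.52e-04 and 1.88e-05). Nfatc2 also fell in both (-0.57 and -0.46, SE 0.13; adjusted p = 0.00609 and 0.0172). With stimulation 0 of the 28 were called against unstimulated culture in cKO cells (0.285% of all tested genes were called) and 2 rose in control cells (0.349%), Irf4 (1.10 ± 0.22, SE; adjusted p = 0.0395) and Myb (0.73 ± 0.14, SE; adjusted p = 0.0316). Between unstimulated and fresh cells Fos and Jun thus moved further than any member.

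Of 31 other co-receptors, most of them of the immunoglobulin superfamily, 24 were tested, and 3 rose and 5 fell in cKO (22.1% of all tested genes were called) and 2 rose and 8 fell in control cells (29%) in unstimulated culture against fresh cells. Cd226, an activating receptor, fell by 1.16 in cKO and by 1.32 in control cells (SE 0.18; limma adjusted p = 2.35e-04 and 6.53e-05), a size near that of Ctla4, and Crtam, its relative, fell too (-1.09 and -1.43, SE 0.16; adjusted p = 2.21e-04 and 1.54e-05). Cd101 rose by 1.12 and 1.25 (SE 0.10; adjusted p = 1.15e-06 and 3.66e-07). Tagap of this list, which also fell, encodes a GTPase-activating protein and no receptor. With stimulation Slamf1, a self-ligand receptor gene, was the one gene of the list called in each genotype (0.70 ± 0.14 in cKO and 0.69 ± 0.14 in control, SE; adjusted p = 0.0416 and 0.0395). Of all tested genes 0.285% were called there in cKO and 0.349% in control cells. Between genotypes 0 genes of the 6 lists were called in any condition, where 1 of the 10877 tested genes was called in fresh cells and 0 in either culture.

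Genes with the pattern most like each member were named by Pearson's r over the 18 libraries, among 7410 candidates (7411 for Pdcd1) with a mean linear value of at least 100. They share the 6 groups and the library differences, and r is given as a description. Ctla4 was most like H2-T24, Prkch and Dusp6 (r = 0.95 for each), of which Dusp6 encodes a phosphatase of ERK and had means of 8.69 in fresh, 6.80 in unstimulated and 7.58 in stimulated cKO cells. Icos was most like Hspa4l (0.93), Itm2a (0.93) and Tspan13 (0.92), and Pdcd1 most like Tacc2 (0.94), Ephx1 (0.92) and the transcription factor gene Myb (0.91). Btla was most like Filip1l (0.96), Etnk1 (0.94) and Ptprc (0.91), the gene of CD45. The 3 genes nearest to Cd28 included Luc7l2 (0.91) and Ndfip1 (0.90). No member appeared among the 3 nearest genes of another, and Pdcd1, below the minimum linear value, was no candidate.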

How the data were processed

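RNA-seq of 18 libraries was grouped by the genotype and condition that the labels give. The submitters' processing notes name CASAVA 1.8, HISAT2 2.1.0, SAMtools 1.4, Partek 6.6, DESeq2 and mm10, without roles, and per the labels' protocols the kit was TruSeq version 2, which does not mark strand. The authors deposited 1 normalized value per library for each of 15137 gene symbols, from -1.36 to 17.17; that these are log2 values was inferred from their range, and how they were transformed is unknown here. Linear sums per library were 6782465 to 7419367, a product of the normalization, so no depth or counting interval is given.

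Genes were tested where 3 or more libraries had a linear value of 10 or above (10877 genes, 71.9%, all 5 members among them). limma 3.58.1 in R 4.3.3 fitted 6 group means to the log2 values as deposited, with trended moderation, two-sided tests, Benjamini-Hochberg adjustment over tested genes, a threshold of 0.05 and 95% intervals, after being tested on simulated data. Alternatives were pseudocounts of 0.5 and 5 added to linear values, a minimum of 50 or none, TMM-type or quantile normalization, fitting the compared groups alone, untrended moderation, library weights, blocks of consecutive library numbers, GC slope, the last pair jointly, and each library left out. Transcript length and GC content came from GENCODE M21 (GRCm38) by symbol, and promoters from RefSeq (GRCm38.p6).

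Named genes were the members, Creld1, the 3 genes of highest Pearson's r to each member, and called genes of the lists. A few genes that this rule or the marker lists hold are not reported here. The members and lists were chosen with earlier results of these data known. Tables and figures were made with Python 3.11.15, pandas 2.3.3, scipy 1.17.1 and matplotlib 3.10.9.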

Additional observations from a re-analysis of the deposited data

Results flagged for a closer look

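Btla was higher in all 3 cKO libraries than in any control library of unstimulated culture, by 0.21 on the log2 scale, and lower in all 3 cKO libraries than in any control library of stimulated culture (-0.14). The separation in stimulated culture was very narrow, with the highest cKO library at 10.771 and the lowest control library at 10.773. It is given here because every cKO library lay on one side in one condition and on the other side in the other. The stimulation interaction, which tests this difference, was not called by limma (-0.35 ± 0.17, SE; adjusted p = 0.182, unadjusted p = 0.0547) and was -0.02 after adjustment for GC slope. The mean GC slope was -0.39 in cKO and -0.10 in control libraries of unstimulated culture, and -0.17 in cKO and -0.25 in control libraries of stimulated culture. No other member showed opposite, fully separated genotype differences in a pair of conditions, and how many of all tested genes did is not given here. With 3 libraries a group, single outlying libraries were not tested for.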

How the results depend on the processing

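Ctla4 in the 4 comparisons of cultured with fresh cells, Btla in unstimulated against fresh control cells, Icos in stimulated against fresh cells of both genotypes and Pdcd1 in stimulated against fresh cKO cells were called under each of the 12 alternatives and without each library in turn. Counts of members called moved as follows. With library weights, which called 2697 to 6125 of 10877 genes in these comparisons, the members called were 3 in fresh cells, 3 in unstimulated culture and 1 on average between genotypes, 3 in cKO and 5 in control cells for stimulated against unstimulated culture, and 4 in the stimulation interaction. These weights were estimated gene by gene, chosen after the default method did not converge. With only the groups compared, the counts were 3 for genotype in unstimulated culture (3762 of 10647 genes were called), 3 for stimulation in cKO cells (2391 of 10640), 1 for culture against fresh in cKO cells (820 of 10652) and 2 for the stimulation interaction (2381 of 10776). GC slope, alone or with the block for runs of library numbers, gave 2 for stimulation in cKO cells (Icos and Btla), and the block alone gave 1 (Pdcd1) and changed no other member call. For stimulation in control cells the count was 1 without the trend and 0 to 3 without 1 library, and for culture against fresh in cKO cells it was 1 with TMM-type scaling and 1 to 2 without 1 library. Cd28, not called in the main fit, was called in 3 of the 12 alternatives for stimulation in control cells. It was called in 4 of 12 for stimulated culture against fresh control cells. Icos was called in 3 of 12 for unstimulated culture against fresh cKO cells. The causes were not tested.

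Small genotype differences turned in sign. In fresh cells Cd28 was -0.067 with GC slope, -0.056 with block and GC slope, and -0.055 to 0.15 without 1 library, Icos 0.19 with library weights and -0.21 to 0.090 without 1 library, Btla 0.0057 with TMM-type scaling, 0.19 with library weights and -0.12 to 0.16 without 1 library, and Pdcd1 0.14 with GC slope, 0.11 with block and GC slope, and -0.22 to 0.10 without 1 library. In unstimulated culture Ctla4 was 0.091 after quantile normalization, 0.016 with library weights and -0.11 to 0.024 without 1 library. Icos was -0.046 and Btla -0.041 with GC slope, and Icos -0.047 and Btla -0.058 with block and GC slope. Pdcd1 there was 0.0013 with a pseudocount of 5, 0.022 with TMM-type scaling, 0.11 after quantile normalization, 0.032 with library weights, 0.47 with GC slope, 0.38 with block and GC slope, and -0.068 to 0.13 without 1 library. In the stimulation interaction Icos was 0.0016 and Btla 0.0035 with block and GC slope. Quantile normalization moved the median of all genes to -0.105 in that interaction. Count tests were not run, since whole reads could not be recovered. The labels give no replicate numbers, and the block used runs of consecutive library numbers, each with 1 library of every group, which no label ties to an animal, day or batch.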
